A study of Mus musculus with 36 samples.

Results

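The 9 genes described here encode the 2 metallothioneins Mt1 and Mt2, the zinc exporter Slc30a1, and 6 proteins of iron handling, namely Tfrc, Slc11a2, Fth1, Slc40a1, Aco1 and Ireb2. They were chosen by name from the 24883 rows of the deposited tables, and all 9 were found. Each of 36 libraries held RNA from the kidney of wild-type male C57BL/6J mice kept in 12 hours of light and 12 hours of dark. One set of mice ate normal chow and the other a high-fat diet, both freely available, with the diet started at 6 weeks of age and kidneys taken at 16 weeks. For each diet, 3 mice were sampled at each of 6 times, written as zeitgeber time (ZT), which counts hours from lights on: ZT0, ZT4, ZT8, ZT12, ZT16 and ZT20. Each mouse gave 1 sample at 1 time, so that no animal was followed over the day, and whole kidney was used with no sorting of cells. In such bulk RNA, fewer cells of a type and less RNA per cell cannot be told apart. Values are FPKM (sequenced fragments of a gene divided by its length and by library size).

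Metallothioneins are small cysteine-rich proteins that bind zinc and copper, and also toxic metals such as cadmium, which collect in the proximal tubule of the kidney. Their genes, and that of the plasma-membrane zinc exporter Slc30a1 (ZnT1), are switched on by the zinc-sensing transcription factor MTF1, which binds metal response elements in their promoters. Glucocorticoids also induce Mt1 and Mt2. Iron in plasma travels on transferrin, which cells take up through the transferrin receptor Tfrc. Slc11a2 (DMT1) carries ferrous iron across membranes, ferritin stores it in a shell of heavy chains (Fth1) and light chains, and ferroportin (Slc40a1) is the known cellular iron exporter. Iron regulatory proteins, encoded by Aco1 and Ireb2, bind hairpins called iron-responsive elements when iron is scarce. Binding in a 5′ untranslated region blocks translation, and binding in a 3′ untranslated region protects the RNA from decay. Aco1 protein without this task is the cytosolic aconitase.

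Hairpins of this kind that a search found in 3 of these RNAs are shown because such hairpins tie the sensors to storage, export and uptake. The annotated transcripts (GENCODE release 21, build GRCm38) were searched for a 27-base stem-loop with a bulged C, 5 paired bases, a 6-base loop of CAGTGN in which the last base is not G, and at least 4 of 5 paired bases below the bulge. It was found in 35 of 55450 genes (0.0631%). The loop is in capitals, and each sequence is written as DNA in the direction of its RNA.
Fth1, 5′ untranslated region, chr19:9982733-9982759, plus strand: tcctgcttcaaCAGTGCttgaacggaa
Slc40a1, 5′ untranslated region, chr1:45925466-45925492, minus strand: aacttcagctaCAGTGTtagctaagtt
Tfrc, 3′ untranslated region, chr16:32631220-32631246, plus strand: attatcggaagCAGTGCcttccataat
Tfrc, 3′ untranslated region, chr16:32631599-32631625, plus strand: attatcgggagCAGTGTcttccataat
Tfrc, 3′ untranslated region, chr16:32631664-32631690, plus strand: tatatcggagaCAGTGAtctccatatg
Tfrc, 3′ untranslated region, chr16:32631711-32631737, plus strand: attatcgggaaCAGTGTttcccataat
The element was in 4 of 5 coding transcripts of Fth1, in 1 of 4 of Slc40a1 and in 1 of 3 of Tfrc. No match of these letters and pairs was found in the other 6 genes, which says only that this pattern is not in their annotated transcripts.

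Mt2 (chr8:94172664-94173568) and Mt1 (chr8:94179082-94180327) lie on the plus strand with 5513 bases between them. Their promoters are shown because the levels of both genes moved together. The RefSeq promoter windows (build GRCm38.p6, 250 bases before to 50 bases after the transcript start) were searched on both strands for the core of the metal response element, TGCACNC or TGCGCNC. Capitals mark the cores, printed from 250 bases before to 30 bases after the RefSeq start. These starts differ from the annotated gene starts given above. The printed Mt2 stretch ends at 94172647, before the gene start at 94172664.
Mt1, chr8:94178839-94179118, plus strand: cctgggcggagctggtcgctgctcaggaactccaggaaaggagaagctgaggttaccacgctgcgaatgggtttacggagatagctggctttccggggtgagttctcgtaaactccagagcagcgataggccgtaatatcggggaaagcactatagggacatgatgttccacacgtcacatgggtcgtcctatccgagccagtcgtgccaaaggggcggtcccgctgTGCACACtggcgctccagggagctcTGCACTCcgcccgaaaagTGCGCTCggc
Mt2, chr8:94172368-94172647, plus strand: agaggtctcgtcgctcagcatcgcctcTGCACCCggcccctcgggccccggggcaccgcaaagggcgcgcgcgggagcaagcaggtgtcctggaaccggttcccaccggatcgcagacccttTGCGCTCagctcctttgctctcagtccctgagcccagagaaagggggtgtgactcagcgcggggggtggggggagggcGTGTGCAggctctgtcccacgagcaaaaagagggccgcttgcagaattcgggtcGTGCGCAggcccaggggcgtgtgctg
Mt1 held 3 cores and Mt2 held 4, against 1.97% of 32851 windows with at least 3 and 0.517% with at least 4. The Slc30a1 window (chr1:191906531-191906830) held 2, and 7.11% of windows held 2 or more. That of Aco1 held 1, and 25.7% of windows held 1 or more. Of 2 Tfrc windows, 1 held 2 overlapping cores on opposite strands and the other held none. No core was found in the windows of Fth1 and Ireb2. A match is a description of letters, not a measured binding site.

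Libraries differed in ways that touch these genes. Relative depth, read from the spacing of low values, ran from 0.338 to 1.45 times the average library. The slope of expression on transcript GC content ran from -0.4 to 0.45 log2 units per 10 percentage points, and both ends were normal chow libraries at ZT4 (replicate 4 at the low end, replicate 2 at the high end). Kidney tubule and glomerulus markers summed to 3765 ± 347 FPKM under normal chow and 3782 ± 209 under high-fat diet (SD, n = 18 each), and none of the 9 was listed at 0. Adipocyte markers (6 of 6 in the tables) summed to 1075 ± 716 FPKM under normal chow, from 207 to 2913, and to 308 ± 182 under high-fat diet, from 89.0 to 799. Red cell precursor markers (6 of 7) summed to 895 ± 349 and 618 ± 182 FPKM, and macrophage markers (7 of 7) to 77.7 ± 17.4 and 91.3 ± 19.7. Adrenal cortex markers were near 0 in most libraries, but Cyp21a1, an adrenal steroid hydroxylase, passed 1 FPKM in 4 normal chow libraries (ZT0 replicate 5, ZT4 replicates 2 and 3, ZT16 replicate 4). The 2 diets come in separate tables, and whether these were normalised in 1 run is not given in the sources used here. The median log2 ratio of a library to the gene means averaged 0.02 under normal chow and -0.01 under high-fat diet.

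The 9 transcripts covered a wide range of levels. Averaged over 36 libraries, Fth1 stood at 5028 FPKM, Mt1 at 224, Mt2 at 84.2, Aco1 at 75.6, Slc11a2 at 20.9, Tfrc at 12.3, Slc30a1 at 8.62, Slc40a1 at 7.77 and Ireb2 at 6.31. The 2 metallothioneins also varied most between libraries, with coefficients of variation of 48.5% for Mt2 and 37.0% for Mt1, against 32.7% for Tfrc, 32.3% for Slc40a1, 28.9% for Ireb2, 17.7% for Slc30a1 and 11.5% to 12.9% for Aco1, Slc11a2 and Fth1.

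Mt1 and Mt2 were lower under high-fat diet at every time of day. In the normal chow kidneys Mt1 read 242, 341 and 244 FPKM at ZT0, 319, 463 and 215 at ZT4, 283, 384 and 341 at ZT8, 294, 379.7 and 265 at ZT12, 211, 163 and 213 at ZT16, and 245, 241 and 271 at ZT20. In the high-fat kidneys it read 139.6, 143 and 118 at ZT0, 184, 164 and 189 at ZT4, 172, 201 and 167 at ZT8, 159, 216 and 207 at ZT12, 127, 154 and 139.8 at ZT16, and 146, 153 and 160.5 at ZT20. At each of the 6 times, all 3 high-fat libraries lay below all 3 normal chow libraries. Over all times the ranges met: normal chow ran from 163 to 463 with a median of 268, and high-fat diet from 118 to 216 with a median of 159.6.

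Mt2 showed the same separation at a lower level. Under normal chow it read 85.6, 147 and 75.6 FPKM at ZT0, 124, 213 and 99.3 at ZT4, 124, 198 and 108 at ZT8, 126, 120.4 and 92.3 at ZT12, 56.3, 51.5 and 72.2 at ZT16, and 85.5, 89.6 and 94.5 at ZT20. Under high-fat diet it read 45.6, 46.5 and 45.5 at ZT0, 68.8, 79.4 and 80.9 at ZT4, 72.9, 88.9 and 66.3 at ZT8, 51.7, 79.4 and 64.0 at ZT12, 42.2, 42.4 and 47.2 at ZT16, and 48.9, 47.7 and 49.2 at ZT20. An antisense gene, Gm45774, overlaps Mt2, and reads of the 2 cannot be told apart here. As for Mt1, all 3 high-fat libraries were below all 3 normal chow libraries at each of the 6 times. Of the 11144 genes tested, 25 (0.224%) showed this separation in this direction at all 6 times.

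**Figure D1:**
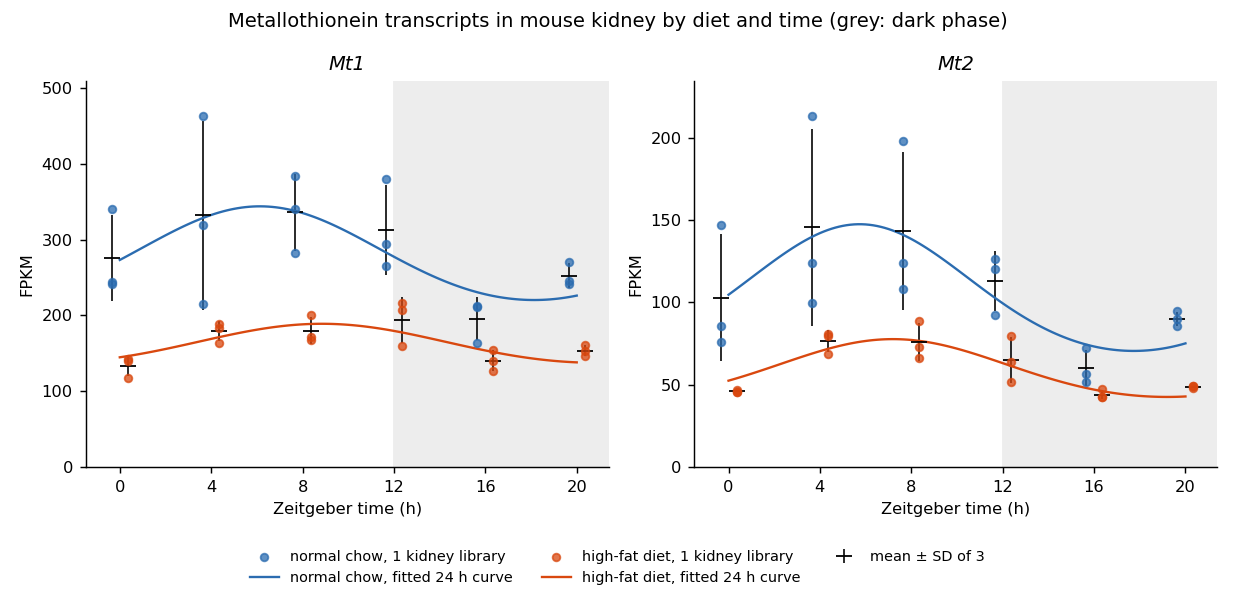
FPKM of Mt1 (left) and Mt2 (right) against zeitgeber time in hours, 1 point per kidney library, with the mean and SD of 3 libraries and the fitted 24 h curve for each diet. At each of the 6 times every high-fat point (orange) lies below every normal chow point (blue), and the gap is narrowest at ZT16.

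On the scale of log2(FPKM + 0.5), averaged with equal weight over the 6 times, Mt1 fell by 0.77 ± 0.08 (SE), a 1.71-fold difference, with limma adjusted p = 2.41e-08. Mt2 fell by 0.82 ± 0.09, a 1.77-fold difference, with limma adjusted p = 3.63e-07. By p-value they ranked 30 and 52 among the 11144 genes. In this comparison 11.4% of all tested genes were lower and 5.25% higher under high-fat diet, at an adjusted p under 0.05 throughout. The share of lower genes among all called genes was 68.4%, and it was 50% after rescaling libraries by median ratios and 46.5% after removing each library's GC trend. Under those settings Mt1 and Mt2 kept their direction and their call. Because diet and deposited table coincide, a difference in how the tables were normalised and a difference in level cannot be told apart, apart from such rescaling.

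Measured as a ratio of means, the gap was widest at ZT0 and narrowest at ZT16, and this change with the hour was not tested by itself. The high-fat mean of Mt1 was 0.484 times the normal chow mean at ZT0 and 0.717 times at ZT16, with the other times between. For Mt2 the ratio was 0.446 at ZT0 and 0.732 at ZT16. Tested at single times, where only 3 libraries face 3, Mt1 fell at ZT0 (by 1.03, limma adjusted p = 0.00226), at ZT4 (by 0.82, adjusted p = 0.0199) and at ZT8 (by 0.89, adjusted p = 0.0225). Mt2 fell at ZT0 (by 1.09, limma adjusted p = 0.00965), and at ZT4 its adjusted p was 0.0550. With Aco1 at ZT0, these were the 5 calls among 54 tests of 9 genes at 6 times. The share of all tested genes called in either direction was 1.59% at ZT0, 1.61% at ZT4, 0.332% at ZT8, 0.368% at ZT12, 0.556% at ZT16 and 0.260% at ZT20. The Mt1 call at ZT4 was lost without normal chow ZT4 replicate 3 (-0.55, limma adjusted p = 0.111) or high-fat ZT4 replicate 4 (-0.76, adjusted p = 0.106). It was also lost without the libraries that held adrenal transcripts, which leaves 1 normal chow library at ZT4 (-0.27, limma adjusted p = 0.277), after median ratio rescaling (-0.72, adjusted p = 0.0606) and with the adipocyte covariate (-0.94, adjusted p = 0.0518). The Mt1 call at ZT8 was lost on leaving out any 1 of 4 libraries (normal chow replicates 4 and 5 and high-fat replicates 1 and 5 at ZT8), with adjusted p from 0.0869 to 0.152, and the Mt2 call at ZT0 without normal chow ZT0 replicate 4 (-0.80, adjusted p = 0.0761).

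The sums of adipocyte and red cell markers were also lower under high-fat diet. The library with the highest adipocyte sum of the 36 (normal chow ZT4 replicate 3, 2913 FPKM) also had the highest red cell sum (1935), the highest Mt1 (463) and the highest Mt2 (213). It was also 1 of the 4 normal chow libraries that held adrenal transcripts. Without those 4 libraries the differences were -0.71 for Mt1 and -0.79 for Mt2, with 1 normal chow library left at ZT4. Of the 2 normal chow libraries with the lowest adipocyte sums, ZT0 replicate 4 (207) had the highest Mt1 (341) and Mt2 (147) of its group, and ZT8 replicate 1 (253) the lowest Mt1 of its group (283). With the mean log2 level of the adipocyte markers as a covariate, Mt1 fell by 0.84 and Mt2 by 0.93 (limma adjusted p = 1.01e-05 and 5.50e-05). With the red cell markers as the covariate the decreases were 0.73 and 0.80 (limma adjusted p = 1.61e-06 and 1.17e-05), and without ZT0 and ZT4 they were 0.69 and 0.75 (adjusted p = 1.88e-06 and 1.59e-05). The 2 covariates and the omission of ZT0 and ZT4 were chosen after seeing the data.

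Ordered by group mean, Mt1 was highest under normal chow at ZT8 (336 ± 50.6 FPKM, SD, n = 3), followed by ZT4 (332 ± 125), ZT12 (313 ± 59.5), ZT0 (276 ± 56.2), ZT20 (252 ± 16.0) and ZT16 (195 ± 28.5). The 6 high-fat groups followed, from ZT12 (194 ± 30.9) through ZT8 (179.9 ± 18.2), ZT4 (179 ± 13.3), ZT20 (153 ± 7.20) and ZT16 (140.1 ± 13.2) to ZT0 (134 ± 13.8). Of the 11 neighbouring pairs in this order, 2 differed by more than the sum of both SDs, namely normal chow ZT20 above ZT16 and high-fat ZT4 above ZT20. Mt2 ran from 145 ± 60.01 FPKM (normal chow ZT4) to 43.9 ± 2.81 (high-fat ZT16), a 3.31-fold range, and its normal chow trough at ZT16 (60 ± 10.8) lay below the high-fat means at ZT4 (76.3 ± 6.57), ZT8 (76.0 ± 11.7) and ZT12 (65 ± 13.9).

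Both metallothioneins peaked in the light phase. A 24 h cosine and sine curve was fitted within each diet. Under normal chow 7.77% of tested genes passed this test, and under high-fat diet 7.30% did. Mt2 passed in both: its peak-to-trough difference was 1.06 ± 0.24 log2 units (2.08-fold) under normal chow, with the peak at 5.74 ± 0.879 h and limma adjusted p = 0.0284, and 0.86 ± 0.13 (1.82-fold) under high-fat diet, with the peak at 7.19 ± 0.556 h and limma adjusted p = 0.000776. Mt1 passed under high-fat diet, with 0.46 ± 0.11 log2 units, a peak at 8.84 ± 0.956 h and limma adjusted p = 0.0449. Under normal chow Mt1 had a difference of 0.64 ± 0.19, a peak at 6.13 ± 1.13 h and limma adjusted p = 0.0962, and it passed in a fit over all 36 libraries (0.64, adjusted p = 0.0184) and without ZT4 replicate 4 (adjusted p = 0.0173). The Mt2 call under high-fat diet held in every alternative run, with adjusted p from 0.000464 to 0.0255. The Mt2 call under normal chow was lost in 7 of 14 alternatives besides those leaving out 1 library. Among them were no filter on low values (limma adjusted p = 0.0592), time as a factor (1.21, limma adjusted p = 0.102) and both rescalings (median ratio 0.98, adjusted p = 0.0728). It was lost as well with the replicate number as a covariate, and without the 4 libraries that held adrenal transcripts (0.83, with 1 library at ZT4). Leaving out any 1 of 5 libraries also lost it (ZT4 replicate 3, ZT8 replicate 4, and ZT16 replicates 1, 4 and 5), with adjusted p from 0.0559 to 0.0701. The Mt1 call under high-fat diet was lost in 6 of 13 alternatives besides those leaving out 1 library. Among them were no filter (limma adjusted p = 0.0909), both rescalings, a fit over all 36 libraries (0.46, adjusted p = 0.204) and the replicate number as a covariate. Leaving out any 1 of 12 of the 18 libraries also lost it, with adjusted p up to 0.0934. It was kept without ZT8 replicates 1 or 5, ZT12 replicate 2, ZT16 replicate 1, or ZT20 replicates 3 or 4.

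The rhythms of the 2 diets were compared by the interaction of diet with the cosine and sine terms. Of all tested genes 0.0269% passed, and none of the 9 did, with limma adjusted p = 1.00 for each and the lowest unadjusted p at 0.0811 (Slc11a2). The high-fat peak was later by 2.71 ± 1.48 h for Mt1 and by 1.46 ± 1.04 h for Mt2, and the peak-to-trough difference was lower by 0.18 ± 0.22 and 0.20 ± 0.27 log2 units.

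The proportion of the 2 transcripts did not differ between diets beyond the spread of libraries. The ratio of Mt1 to Mt2, both in FPKM, had a median of 2.85 under normal chow (1.94 to 3.75) and of 2.97 under high-fat diet (2.07 to 3.62). The difference in its log2 mean was 0.05 (p = 0.376, two-sided permutation test of diet within time, 100000 permutations, n = 18 against 18). At ZT20 the ranges did not meet, at 2.70 to 2.87 under normal chow and 2.98 to 3.26 under high-fat diet. They overlapped at the other times, and single times were not tested. Over the day the geometric mean ratio was lowest at ZT4 and ZT8 (2.29 and 2.41 under normal chow, 2.34 and 2.37 under high-fat diet) and highest at ZT16 (3.25 and 3.16). These 3 times fell in the same order in both diets, and the change of the ratio with the hour was not tested.

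Slc30a1 (chr1:191906767-191913247, plus strand), which exports zinc from the cytosol, did not pass the test between diets. It ran from 4.46 to 11.6 FPKM under normal chow, with a median of 8.47, and from 5.34 to 11.7 under high-fat diet, with a median of 8.49. The difference between diets was 0.00 ± 0.08 log2 units (limma adjusted p = 0.981). The widest group was normal chow ZT4, at 4.46, 7.49 and 11.6 FPKM. At ZT20 the high-fat libraries (8.32, 8.48 and 8.38) lay just below those of normal chow (8.81, 10.3 and 8.68), a separation that 10.3% of tested genes showed at that time. Its rhythm did not pass under normal chow (0.34 ± 0.18, limma adjusted p = 0.472) or high-fat diet (0.23 ± 0.14, adjusted p = 0.586). None of the 11 neighbouring pairs of its 12 group means differed by more than the sum of both SDs, and the same held for Tfrc, Slc40a1, Fth1 and Ireb2. Only neighbours in the order of means were compared, and groups farther apart in it can differ by more. For Tfrc, normal chow ZT16 (14.8 ± 0.657 FPKM) and ZT8 (8.14 ± 2.03) did so. An antisense gene, 1700034H15Rik, overlaps an exon of Slc30a1, and counting by strand is not given in the sources used here, so that reads of the 2 cannot be told apart.

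**Figure D2:**
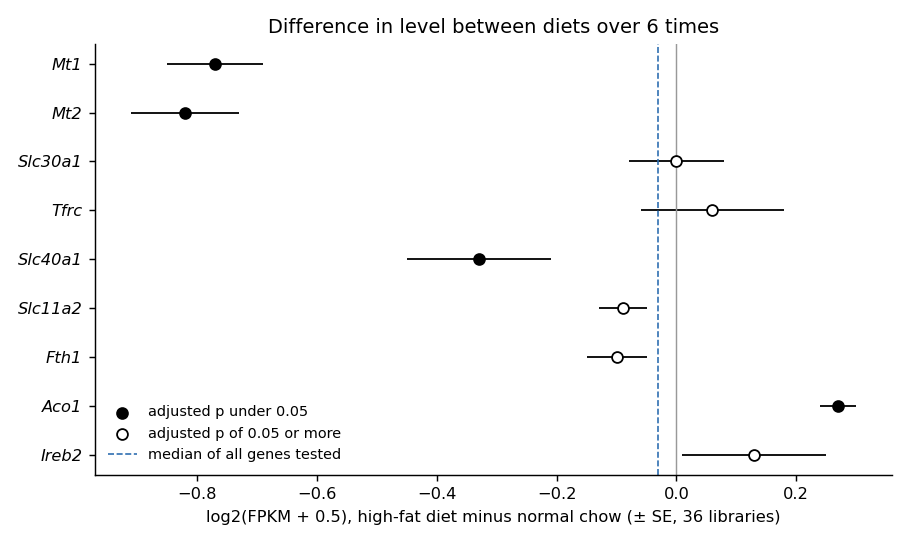
Difference in log2(FPKM + 0.5) between high-fat diet and normal chow for the 9 genes, averaged over 6 times, with its SE over 36 libraries. Mt1, Mt2 and Slc40a1 lie below 0 and Aco1 above it with an adjusted p under 0.05 (filled), and the dashed line is the median of all tested genes, -0.03.

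Of the 6 iron genes, Aco1 rose and Slc40a1 fell under high-fat diet, and the other 4 did not pass. With Mt1 and Mt2, 1 of the 9 genes was higher and 3 were lower, against 5.25% and 11.4% of all tested genes. The median difference was -0.09 against -0.03 over all tested genes. The 9 genes were chosen with earlier results of these data known, so that these shares are descriptions. Aco1 (chr4:40143081-40198338, plus strand) is the iron sensor that doubles as cytosolic aconitase. Under normal chow it read 67.7, 65.4 and 59.8 FPKM at ZT0, 59.0, 62.1 and 73.7 at ZT4, 72.6, 74.6 and 75.2 at ZT8, 65.3, 66.6 and 65.9 at ZT12, 78.2, 77.4 and 69.2 at ZT16, and 67.8, 67.9 and 65 at ZT20. Under high-fat diet it read 85.1, 79.99 and 74.8 at ZT0, 81.5, 71.4 and 71.6 at ZT4, 95.9, 91.1 and 79.3 at ZT8, 88.0, 80.2 and 78.3 at ZT12, 93.5, 93.3 and 87.4 at ZT16, and 78.1, 82.6 and 77.3 at ZT20. All 3 high-fat libraries lay above all 3 normal chow libraries at 5 of the 6 times, and at ZT4 the groups overlapped. Of all tested genes 0.592% were higher without overlap at 5 or more times.

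Aco1 rose by 0.27 ± 0.03 log2 units, a 1.21-fold difference, with limma adjusted p = 1.13e-06 and rank 70 among 11144 genes. The call held in each alternative run, including the adipocyte covariate (0.26, limma adjusted p = 0.00128) and the red cell covariate (0.28, adjusted p = 1.17e-05). At single times it passed at ZT0 (0.31, limma adjusted p = 0.0436), where leaving out any 1 of 18 of the 36 libraries gave an adjusted p from 0.0503 to 0.182. That call was also lost without the libraries that held adrenal transcripts (0.26, limma adjusted p = 0.0841) and with the adipocyte covariate (0.31, adjusted p = 0.0588). The rhythm of Aco1 did not pass (limma adjusted p = 0.473 under normal chow and 0.293 under high-fat diet), and with the GC trend removed it did (0.23 and 0.19, adjusted p = 0.0496 and 0.0244). With the GC trend removed its level passed at ZT4, ZT12, ZT16 and ZT20 as well (adjusted p from 0.000640 to 0.0207). At ZT4 its difference was 0.21, and 0.02 without the libraries that held adrenal transcripts. Ireb2 (chr9:54863789-54912530, plus strand), the other iron regulatory protein, ran from 3.23 to 13.1 FPKM under normal chow, with a median of 5.89, and from 4.57 to 9.38 under high-fat diet, with a median of 6.49. Its difference was 0.13 ± 0.12 log2 units (limma adjusted p = 0.483), and its lowest and highest libraries were both normal chow ZT4 (replicates 2 and 4).

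Slc40a1 (chr1:45908068-45926523, minus strand), the iron exporter ferroportin, was lower under high-fat diet by a small margin that depended on the processing. Under normal chow it read 7.01, 12.2 and 9.25 FPKM at ZT0, 4.59, 9.49 and 17.3 at ZT4, 11.8, 8.74 and 6.53 at ZT8, 8.86, 5.95 and 6.06 at ZT12, 11.4, 7.53 and 8.37 at ZT16, and 9.82, 6.33 and 7.78 at ZT20. Under high-fat diet it read 7.07, 5.88 and 7.53 at ZT0, 5.93, 5.72 and 4.03 at ZT4, 9.01, 7.40 and 6.2 at ZT8, 6.25, 5.92 and 5.37 at ZT12, 9.01, 7.73 and 7.49 at ZT16, and 6.59, 7.75 and 5.82 at ZT20. The groups overlapped at each time, but 7 normal chow libraries lay above the highest high-fat library. The fall was 0.33 ± 0.12 log2 units, with limma adjusted p = 0.0469. The call was lost on leaving out any 1 of 25 of the 36 libraries, with adjusted p up to 0.0793, without ZT0 and ZT4 (-0.20, limma adjusted p = 0.197), with the adipocyte covariate (-0.43, adjusted p = 0.150), with the red cell covariate (-0.36, adjusted p = 0.0922), with no filter (adjusted p = 0.0727) and after median ratio or upper quartile rescaling (both -0.30, adjusted p = 0.0675 and 0.0832). It held with the GC trend removed (-0.32, limma adjusted p = 0.0159). Without the libraries that held adrenal transcripts the difference was -0.50, and -1.65 at ZT4. Normal chow ZT4 then rests on replicate 4 alone, the library with the highest Slc40a1 of the 36 (17.3 FPKM). The rhythm of Slc40a1 did not pass in either diet (limma adjusted p = 0.834 and 0.552).

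Tfrc (chr16:32608920-32632794, plus strand) brings transferrin-bound iron into cells. Under normal chow it read 10.6, 20.3 and 12.6 FPKM at ZT0, 5.26, 12.8 and 21.9 at ZT4, 10.4, 6.44 and 7.59 at ZT8, 9.72, 6.98 and 9.28 at ZT12, 15.5, 14.3 and 14.7 at ZT16, and 15.1, 13 and 12.8 at ZT20. Under high-fat diet it read 10.6, 13.6 and 14.6 at ZT0, 9.46, 9.49 and 7.30 at ZT4, 14.9, 9.97 and 12.4 at ZT8, 12.9, 8.40 and 9.41 at ZT12, 22.5, 16.9 and 14.4 at ZT16, and 11, 13 and 11 at ZT20. By group mean Tfrc was highest at ZT16 in both diets (14.8 FPKM under normal chow and 17.9 under high-fat diet). It was lowest at ZT8 under normal chow (8.14) and at ZT4 under high-fat diet (8.75). The difference between diets was 0.06 ± 0.12 log2 units (limma adjusted p = 0.801).

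The rhythm of Tfrc did not pass as fitted. Its peak-to-trough difference was 0.85 ± 0.28 log2 units with the peak at 20.8 ± 1.25 h under normal chow (limma adjusted p = 0.141), and 0.54 ± 0.21 with the peak at 17.1 ± 1.48 h under high-fat diet (adjusted p = 0.261). With each library's GC trend removed it passed under normal chow (0.89, limma adjusted p = 0.00708) and under high-fat diet (0.53, adjusted p = 0.0354). It also passed under normal chow without ZT4 replicate 4 (0.97, limma adjusted p = 0.0266), the library with the lowest GC slope, and under high-fat diet with time as a factor (0.98, adjusted p = 0.0168). With time as a factor, far more of all tested genes passed under high-fat diet than as fitted. Transcripts of Tfrc average 42.1% GC, at percentile 5.59 of the tested genes, and those of Ireb2 39.7%, at percentile 1.6.

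Slc11a2 (chr15:100387898-100425072, minus strand), the ferrous iron carrier, read 24.3, 26.9 and 24.2 FPKM at ZT0 under normal chow and 21.5, 22.5 and 19.8 under high-fat diet. At ZT20 it read 22.8, 22.2 and 23.1 against 19.7, 20.3 and 18.8. High-fat libraries were below normal chow libraries at both times without overlap, which 12.8% of tested genes showed at ZT0 and 10.3% at ZT20, and the diets overlapped at the other 4 times. Over all times the difference was -0.09 ± 0.04 log2 units (limma adjusted p = 0.173). Without the 4 libraries that held adrenal transcripts it was -0.14, and -0.40 at ZT4, where normal chow then rests on 1 library (25.9 FPKM). The normal chow rhythm of Slc11a2 passed with 0.37 ± 0.09 log2 units and a peak at 22.3 ± 0.973 h (limma adjusted p = 0.0485), against 0.08 ± 0.09 under high-fat diet (adjusted p = 0.862). Among fits that left out 1 library, the normal chow call was kept without ZT4 replicate 2, ZT4 replicate 4 or ZT12 replicate 3, and leaving out any 1 of the other 15 libraries gave an adjusted p from 0.0512 to 0.102. It was also lost with no filter, with a robust prior, with time as a factor and with the adipocyte covariate (limma adjusted p = 0.0556, 0.0507, 0.216 and 0.0583). An antisense gene, Gm5475, overlaps an exon of Slc11a2, and 0.237% of its 50-base stretches occur in other genes, so that reads may be shared.

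Fth1 (chr19:9980598-9985098, plus strand), the ferritin heavy chain, was the most abundant of the 9. It ran from 4536 to 6428 FPKM under normal chow, with a median of 5050, and from 4027 to 6068 under high-fat diet, with a median of 4862. The diets overlapped at each time, and the difference was -0.10 ± 0.05 log2 units (limma adjusted p = 0.140). Its rhythm did not pass under normal chow (0.17 ± 0.11, limma adjusted p = 0.575) or high-fat diet (0.16 ± 0.10, adjusted p = 0.587). Of its 50-base stretches 1.59% occur in 1 other annotated gene, the pseudogene Gm6977, so that reads from it may be shared. For 6 of the genes (Mt1, Mt2, Slc30a1, Tfrc, Slc40a1 and Aco1) no such stretch was shared.

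**Figure D3:**
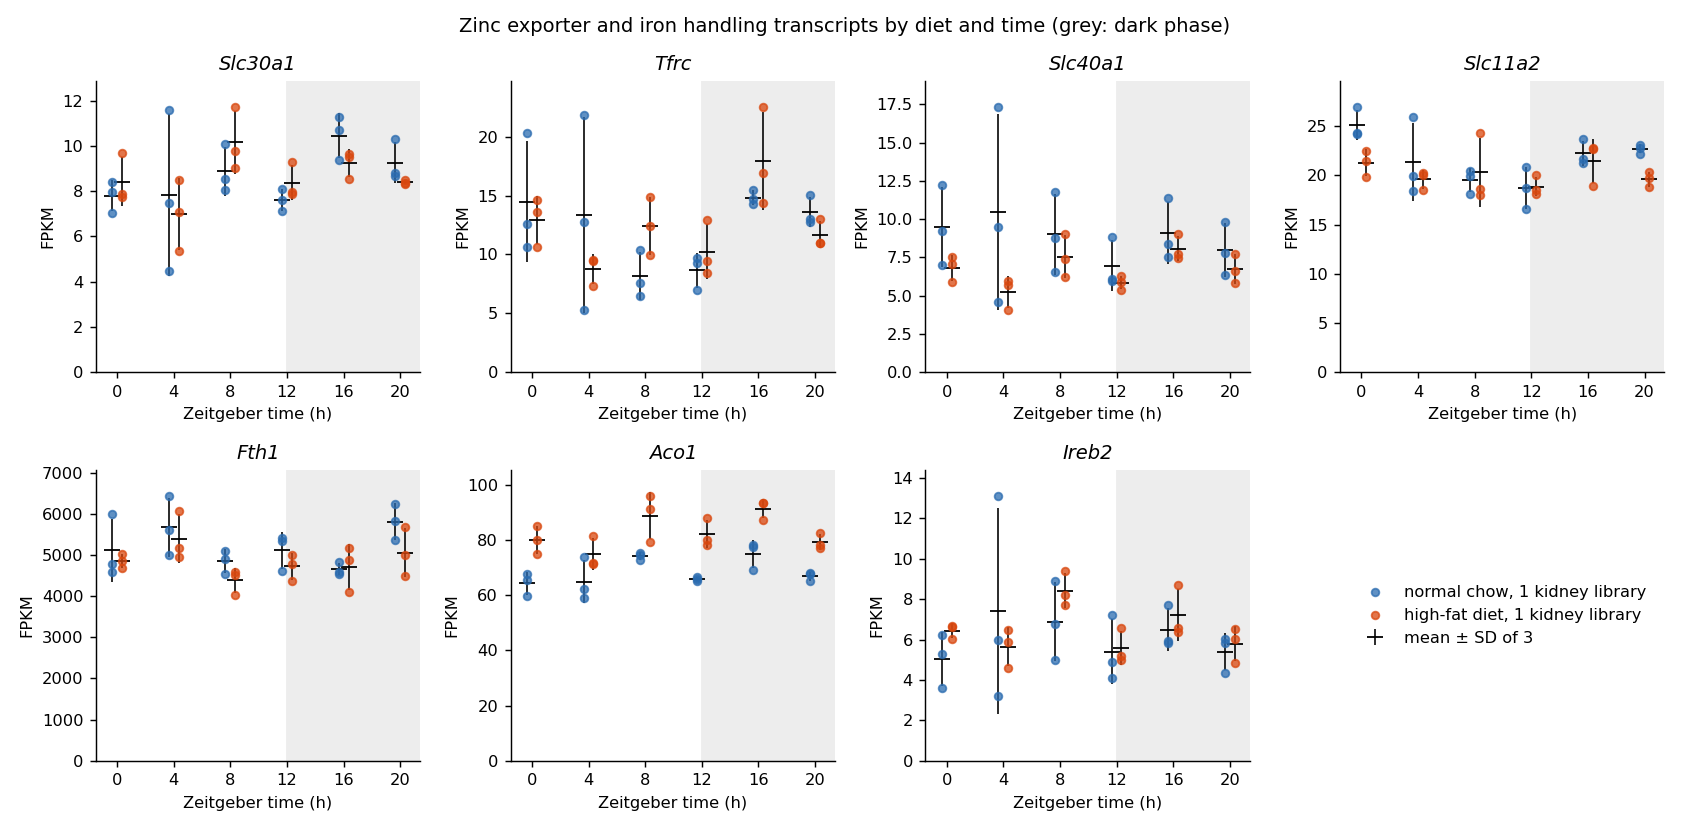
FPKM of Slc30a1 and the 6 iron genes against zeitgeber time in hours, 1 point per kidney library, with the mean and SD of 3 libraries for each diet. The Aco1 points of high-fat diet (orange) lie above those of normal chow (blue) at 5 of 6 times, and the 3 normal chow libraries at ZT4 are spread widely for Slc30a1, Tfrc, Slc40a1 and Ireb2.

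Libraries of 1 group also differed from each other in a shared way. For 6 chosen pairs, the deviations of log2(FPKM + 0.5) from the group means were correlated over 36 libraries, with two-sided permutation tests within groups (100000 permutations, p adjusted over the 6 pairs). Mt1 and Mt2 rose and fell together between mice of 1 group (Pearson r = 0.79, permutation p = 0.00048, adjusted p = 0.00072; Spearman rho = 0.74, p = 0.00035). Without the 2 libraries whose Mt1 was farthest from the median (normal chow ZT4 replicates 3 and 4), r was 0.70. Neither gene passed with Slc30a1 (r = -0.35 for Mt1 and -0.15 for Mt2, permutation adjusted p = 0.516 and 0.774; rho = -0.27 and -0.14, p = 0.201 and 0.517).

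Among the 3 genes in which the searched hairpin pattern was found, Tfrc and Slc40a1 moved together (r = 0.84, permutation p = 0.00017, adjusted p = 0.00051; rho = 0.69, p = 0.00039), and both moved against Fth1. For Tfrc and Fth1 r was -0.70 (permutation p = 0.00028, adjusted p = 0.00056; rho = -0.69, p = 0.00037), and for Slc40a1 and Fth1 it was -0.73 (permutation p = 4e-05, adjusted p = 0.00024; rho = -0.74, p = 8e-05). The libraries farthest from the median were in all 3 cases normal chow ZT4 replicates 2 and 4, and without them r was 0.66, -0.66 and -0.69. These deviations also went with the GC slope of the library. Over the 36 libraries r with the deviation of the GC slope was -0.85 for Tfrc, -0.89 for Slc40a1, -0.95 for Ireb2 and 0.71 for Fth1, against 0.46 for Mt1 and 0.10 for Mt2. With the GC trend removed, r was 0.64 for Tfrc and Slc40a1 (permutation adjusted p = 0.033), -0.40 for Tfrc and Fth1 (adjusted p = 0.126), -0.63 for Slc40a1 and Fth1 (adjusted p = 0.00297) and 0.84 for Mt1 and Mt2 (adjusted p = 0.00297). In the normal chow libraries alone the 4 called pairs had r of 0.83, 0.90, -0.80 and -0.81 (Mt1 with Mt2, Tfrc with Slc40a1, Tfrc with Fth1, Slc40a1 with Fth1). In the high-fat libraries alone r was 0.65, 0.57, -0.57 and -0.70, and no pair passed (permutation adjusted p from 0.0559 to 0.0901 for these 4).

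**Figure D4:**
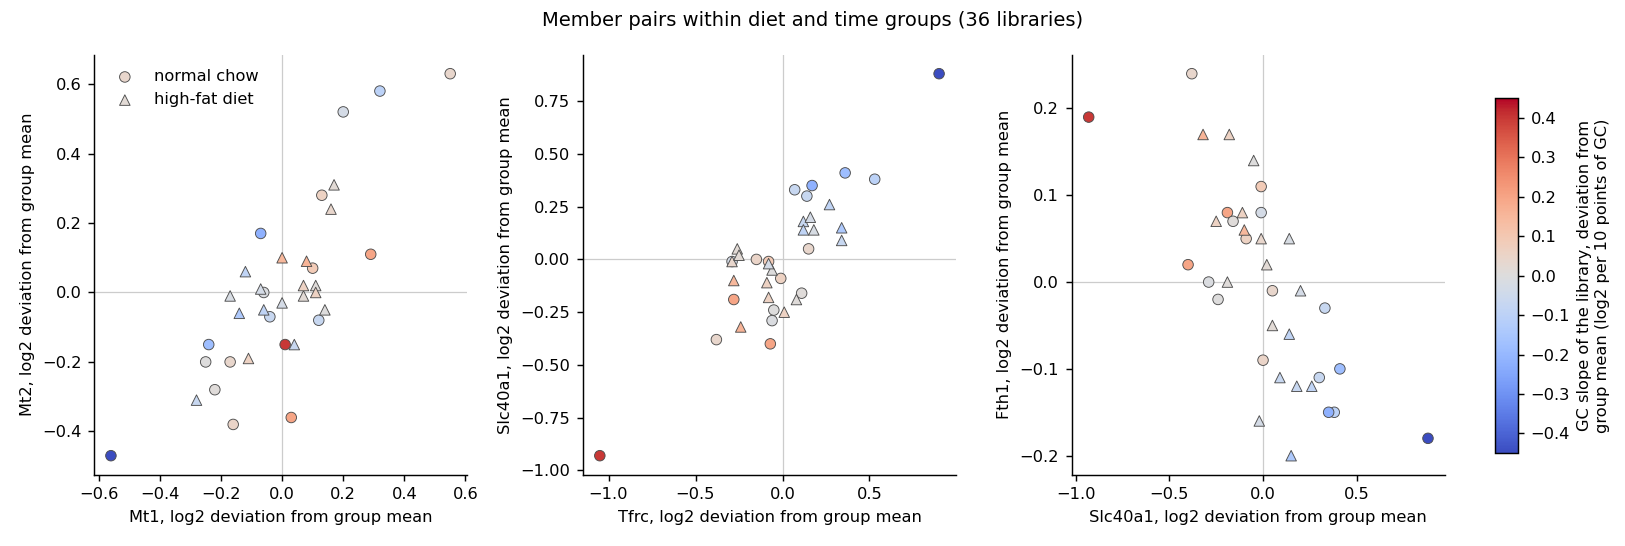
Deviation of log2(FPKM + 0.5) from the mean of the diet and time group for 3 gene pairs, 1 point per library (circles normal chow, triangles high-fat diet), coloured by the deviation of the library's GC slope in log2 units per 10 percentage points. In the Tfrc and Slc40a1 pair the darkest red and the darkest blue points, normal chow ZT4 replicates 2 and 4, lie at the opposite ends.

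The genes with the pattern most like a member were found by Pearson r over the 12 group means of log2(FPKM + 0.5), which share libraries and diet, so that these values are descriptions. Mt1 and Mt2 had r = 0.96 with each other. Nearest to Mt1 among named genes were Uap1l1 (0.953) and Nme4 (0.945), and nearest to Mt2 were Mpg (0.955) and Uap1l1 (0.954). The nearest to Aco1 were Enpp2 (0.985) and Mgam (0.965), and to Ireb2 Gdi2 (0.987) and Atl2 (0.974). Fth1 was nearest to Smdt1 (0.970) and Cox8a (0.957), Slc40a1 to Trappc2 (0.951) and Nucb2 (0.950), and Tfrc to Hspa4l (0.944) and Sec22b (0.939). For Slc11a2 the 2 nearest were Msmo1 and Mtr (both 0.936).

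Among other zinc genes, the transporters Slc30a2 and Slc39a11 were higher under high-fat diet, and Mt3, a gene of low level, was lower. Of 26 zinc transporters and sensing genes 18 were tested, and 2 rose and 1 fell, with a median difference of 0.02. Over all tested genes 16.6% were called (5.25% higher and 11.4% lower) with a median of -0.03, so that 3 of 18 is a share near that of all genes. The gene that fell was Mt3, the metallothionein best known from brain, at 2.03 ± 1.03 FPKM under normal chow and 0.901 ± 0.486 under high-fat diet (SD, n = 18 each; -0.84 ± 0.18 log2 units, SE, limma adjusted p = 0.00120). Mt3 reached the filter of a mean of 1 FPKM only through normal chow, and its high-fat values lie near the 0.5 added before taking logs. Its call, the 1 fall counted above, is therefore a description only. The vesicular zinc transporter Slc30a2 rose from 32.0 ± 4.30 to 38.5 ± 4.84 FPKM (0.27, limma adjusted p = 0.00636), and Slc39a11 from 9.77 ± 1.55 to 11.3 ± 1.69 (0.20, adjusted p = 0.0302). With the red cell covariate the rises were 0.23 and 0.17, and neither passed (limma adjusted p = 0.0553 and 0.149). Mtf1, the zinc sensor itself, was chosen for mention after its values were seen and stood at 1.53 and 1.47 FPKM (-0.04, limma adjusted p = 0.613). In the rhythm tests 1 of the 18 passed in each diet, against 7.77% and 7.30% of all tested genes. The zinc importer Slc39a1 passed under normal chow (0.25, peak at 5.15 h, limma adjusted p = 0.0352), and Slc39a8, another importer, passed under high-fat diet (1.01, peak at 7.66 h, adjusted p = 0.0331).

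Among iron genes outside the 9, transferrin and its tubular receptor were lower under high-fat diet. Of 27 genes of iron uptake, storage and export 18 were tested, and 2 rose and 6 fell, with a median of -0.11, against 5.25% higher and 11.4% lower and a median of -0.03 over all tested genes. Trf, which encodes the plasma iron carrier transferrin, fell from 31.4 ± 12.9 to 13.4 ± 5.81 FPKM (-1.18 ± 0.14 log2 units, limma adjusted p = 4.69e-07), and by 0.61 with the adipocyte covariate. Cubn, the endocytic receptor cubilin that takes up filtered transferrin in the proximal tubule, fell from 26.8 ± 2.97 to 20.6 ± 1.81 FPKM (-0.36, limma adjusted p = 3.62e-06), and the metalloreductase Steap2 from 4.68 ± 0.841 to 3.29 ± 0.569 (-0.45, adjusted p = 3.89e-05). Lcn2, a siderophore-binding lipocalin, rose from 0.978 ± 0.366 to 1.95 ± 0.618 FPKM (0.73, limma adjusted p = 8.98e-05). It reached the filter of a mean of 1 FPKM only through its high-fat libraries. Its call, counted among the 2 that rose, is therefore a description only. The ferritin light chain Ftl1, named after its values were seen because it pairs with Fth1, fell from 6509 ± 1145 to 5179 ± 720 FPKM (-0.32, adjusted p = 0.000398). With the adipocyte covariate 1 of the 18 rose, namely Lcn2, and 4 fell. Trf, Cubn, Steap2 and Ftl1 kept their calls (limma adjusted p = 0.00382, 0.000124, 0.000406 and 0.0239). No gene of the 18 passed the rhythm test under normal chow by limma, where 2 had an unadjusted p under 0.05. Under high-fat diet, where 7.30% of all tested genes passed, the metalloreductase Steap3 did (0.96 ± 0.17, peak at 6.74 h, limma adjusted p = 0.00371).

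Haem and iron-sulfur cluster genes changed little in size. Of 28 listed genes 26 were tested, and 1 rose and 4 fell under high-fat diet, with a median of -0.02. This is near the 16.6% called over all tested genes. Iscu, the scaffold on which iron-sulfur clusters are built, rose from 203 to 229 FPKM (0.17 ± 0.04 log2 units, limma adjusted p = 0.000973). Hmox1, which breaks down haem and frees its iron, fell from 34.6 ± 9.29 to 27.3 ± 5.99 FPKM (-0.32 ± 0.06, limma adjusted p = 0.000428). The cluster carriers Nfu1 (-0.14, limma adjusted p = 0.00547) and Glrx5 (-0.10, adjusted p = 0.0371) also fell. With the adipocyte covariate none of the 26 passed by limma, with differences of -0.24 for Hmox1 (adjusted p = 0.117), 0.16 for Iscu (0.0714), -0.16 for Nfu1 (0.0622) and -0.08 for Glrx5 (0.437).

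Of the 26 genes 4 passed the rhythm test under normal chow and 2 under high-fat diet, against 7.77% and 7.30% of all tested genes. Hmox1 had a 24 h rhythm in both diets, with 0.87 ± 0.14 log2 units and a peak at 19.9 h under normal chow (limma adjusted p = 0.00219) and 0.74 ± 0.12 with a peak at 18.6 h under high-fat diet (adjusted p = 0.00153). Under normal chow Alas1, the first enzyme of haem synthesis, passed with 1.02 ± 0.24 log2 units and a peak at 15.3 h (limma adjusted p = 0.0305). Blvra, which reduces biliverdin, peaked at 9.74 h and the cochaperone Hscb at 6.76 h (limma adjusted p = 0.0411 and 0.0167). Under high-fat diet Lyrm4 passed (0.46, peak at 1.43 h, limma adjusted p = 0.0336). No gene of the 3 lists passed the test of a difference in rhythm between diets by limma, and 1 (Steap3) had an unadjusted p under 0.05.

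**Figure D5:**
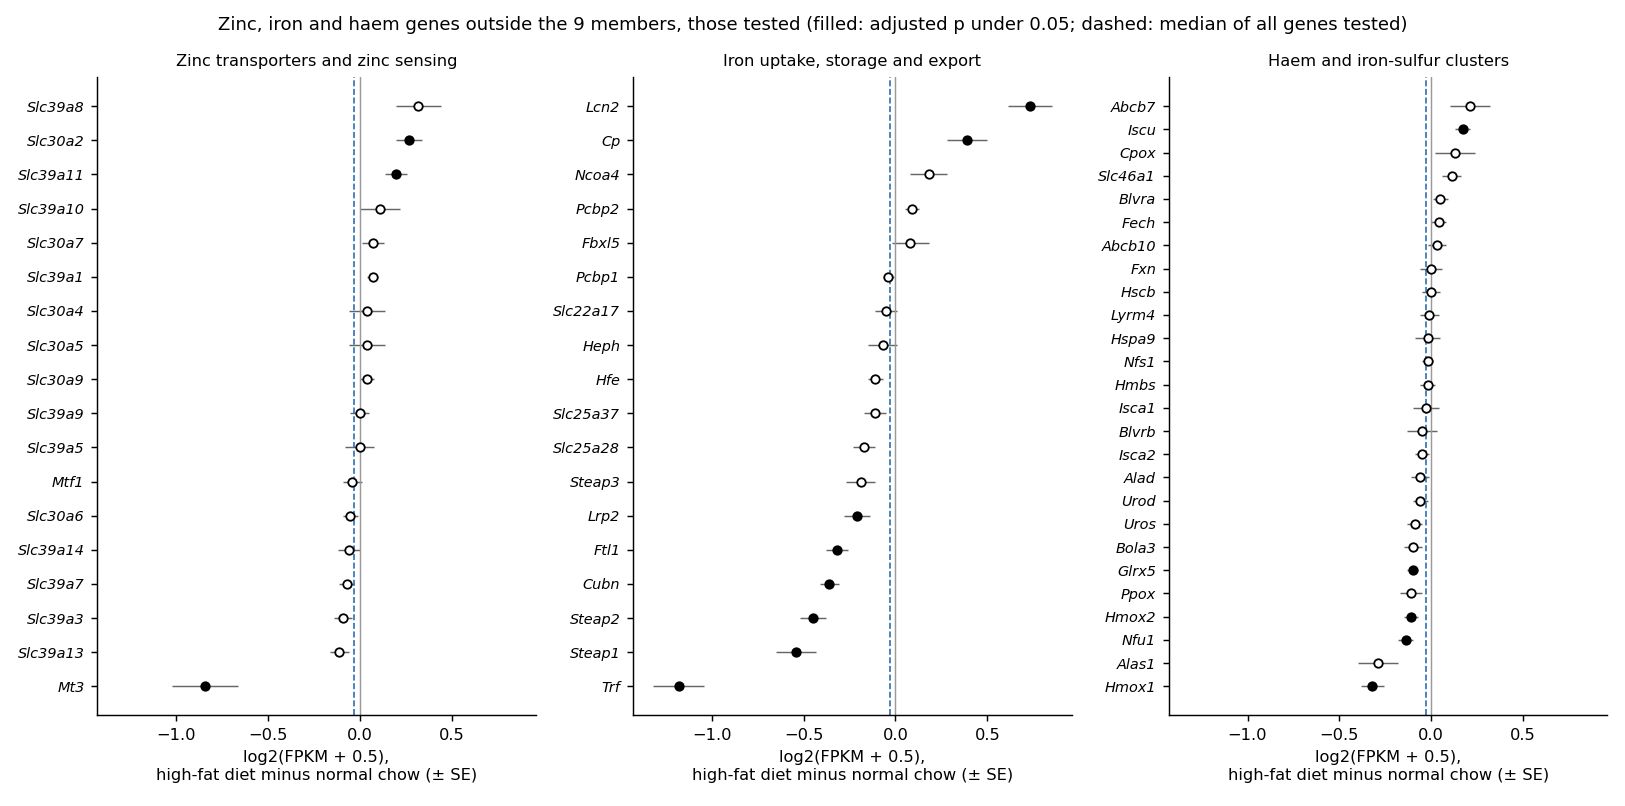
Difference in log2(FPKM + 0.5) between high-fat diet and normal chow for each tested gene of the 3 lists, 1 point per gene, filled where the adjusted p was under 0.05. In the iron list 6 genes fell and 2 rose, with Trf lowest at -1.18.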

How the data were processed

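The authors deposited 1 table of FPKM values per diet, with 1 column for each kidney library and 24883 rows. TRIzol was used for extraction and the TruSeq RNA v2 kit for the libraries, per the labels' protocols. The tools Cuffnorm, Bowtie and CASAVA 1.8.2 and the build mm10 are named per the submitters' processing notes, with no further settings. FPKM values carry no read counts, so that no count model was run. Relative depth was read from low values, of which 90.5% lay within 0.05 of a whole multiple of a library's smallest step over 1204 genes. It ran from 0.338 to 1.45 times the average.

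From the deposited FPKM, 280 repeated symbols (817 entries) were left out. Genes whose FPKM averaged 1 or more (11144) were tested on log2(FPKM + 0.5). limma 3.58.1 in R 4.3.3 (lmFit, then eBayes with a trend) gave the level of high-fat diet minus normal chow over 6 times, the same at each time from 12 group means, a 24 h cosine and sine curve within each diet, and the interaction of diet with that curve. Adjusted p-values follow Benjamini and Hochberg over all tested genes, with a threshold of 0.05. SE are those of limma. Pair correlations and the Mt1 to Mt2 ratio used 100000 seeded permutations in Python 3.11.15 with scipy 1.17.1. The fits were tested on simulated data. A GC trend was removed in an alternative, with GC content known for 10754 of the tested genes (96.5%). Replicate numbers come from the labels. As no sample was measured again, limma p-values rest on the spread between mice. For levels, each gene had 1 spread shared by the 12 groups, and for rhythms the spread around the fitted curve. Both were moderated over all genes. A widely spread group, such as Mt1 at normal chow ZT4, therefore enters the level tests at every time.

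Named genes are the 9, up to 4 genes per list and test by p-value among those that passed, and up to 2 genes of most like pattern for each of the 9. Those for Slc30a1 are not reported here. The 9 genes and the lists were chosen with earlier results of these data known. Sequences come from GENCODE transcripts and RefSeq promoters, and 7 of the 9 genes had a promoter entry.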

Additional observations from a re-analysis of the deposited data

How the results depend on the processing

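No called result among the 9 genes changed direction under an alternative. The 4 calls on level over all times stayed between 3 and 4 on leaving out each library in turn. The level at single times had 5 calls, against 9 with the GC trend removed, 9 with the replicate block and the GC trend removed, 14 without the libraries with adrenal transcripts (normal chow ZT4 then has 1 library, assumed to vary like the others), 3 with the adipocyte score as a covariate, and 4 to 10 on leaving out each library (10 without normal chow ZT4 replicate 4, 8 without its replicate 2). The rhythm under normal chow had 2 calls, against 4 with the GC trend removed, 1 after median ratio rescaling, upper quartile rescaling, a robust prior, the adipocyte covariate or leaving out the adrenal libraries, 0 with no filter, with time as a factor or with the replicate block, and 0 to 4 on leaving out each library (4 without normal chow ZT4 replicate 4). The rhythm under high-fat diet had 2 calls, against 4 with the GC trend removed, 5 with time as a factor, 1 with no filter, after either rescaling, with the replicate block or in a fit over all 36 libraries, and 1 to 2 on leaving out each library. With the replicate block the calls lost were those of Mt2 (0.98, limma adjusted p = 0.0629) and Slc11a2 (0.33, 0.0623) under normal chow, of Mt1 (0.44, 0.214) under high-fat diet, and of Aco1 at ZT0 (0.27, 0.0953). The difference in rhythm had 0 calls under each setting run. The 4 called pairs were 4 in each fit that left out 1 library and 0 in the high-fat libraries alone, and the difference in the log2 ratio of Mt1 to Mt2 ran from 0.02 to 0.08. The cause of these changes was not tested.

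Over all genes, calls on level numbered 1850, against 585 with the adipocyte and 1161 with the red cell covariate. Of these calls 68.4% were lower, against 50% after median ratio rescaling, 49.9% after upper quartile rescaling, 46.5% with the GC trend removed, 46.1% with the replicate block and GC trend removed, and 56.6% without ZT0 and ZT4. Rhythm calls under normal chow numbered 866, against 375 with time as a factor, 1627 in the fit over 36 libraries and 523 without the adrenal libraries, and under high-fat diet 813, against 446 with the replicate block and 3166 with time as a factor. The difference in rhythm had 3, against 0 with the replicate block and 1 with the GC trend removed as well. At ZT4 the count was 179, against 4937 without the adrenal libraries, 310 with the GC trend removed, 117 when genes had to average 5 FPKM, and 46 with the adipocyte covariate. At ZT0, ZT8, ZT12, ZT16 and ZT20 the counts of 177, 37, 41, 62 and 29 became 295, 60, 82, 98 and 48 with the GC trend removed, and 269, 72, 92 and 50 at ZT0, ZT8, ZT12 and ZT20 without the adrenal libraries. With the adipocyte covariate ZT12 had 12 and ZT20 had 16. With the replicate block ZT16 had 41 and ZT20 had 14, ZT16 had 38 with no filter, and ZT20 had 18 after median ratio rescaling.

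Same-numbered libraries of different groups deviated together little more than others (median r 0.04 over 119 pairs, 32.8% over 0.1, against -0.00 over 475 pairs and 29.3%). These values pool both diets and all times, and a weak link by number, or one within a diet, was not tested.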
